A study of Mus musculus with 2 samples.

Results

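Chemokine ligands and chemokine receptors were taken as the genes whose symbol in the platform annotation was Ccl, Cxcl, Xcl, Cx3cl, Ccr, Cxcr, Xcr, Cx3cr or Ackr with a number and any letter suffix, without Ccr6 and Ccr7. The symbols gave 51 genes with 83 probe sets, out of 18193 named genes on the array, and comprised 33 ligands and 18 receptors. They were compared between IL-5+ and IL-5- memory T helper 2 (Th2) cells, each represented by 1 Affymetrix mouse array. Both fractions came from BALB/c splenic CD4 T cells with the DO11.10 T cell receptor transgene, specific for a peptide of ovalbumin (OVA). The cells had been stimulated with this peptide for 6 days in Th2 medium (25 U/ml IL-2 and 100 U/ml IL-4), then moved into BALB/c nu/nu recipients, athymic mice that make few T cells of their own but keep B cells, natural killer cells and myeloid cells. Memory cells were taken from the spleen 30 days later and sorted by IL-5 production. How many recipients there were, whether RNA was pooled, and how cells were stimulated and stained for the sort is not stated in the labels.

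Chemokines are small secreted proteins that guide leukocyte movement by binding receptors coupled to G proteins, and they are classed as CC, CXC, C or CX3C by the spacing of their first conserved cysteines. T cells make some of them on activation, such as Ccl3, Ccl4 and Xcl1, and carry receptor sets that differ between helper lineages, with Ccr4 and Ccr8 linked to Th2 cells and Cxcr3 to Th1 cells. Atypical receptors (Ackr) bind chemokines without the usual G protein signalling.

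Of the 51 genes, 4 were higher and 6 were lower in IL-5+ cells than in IL-5- cells by 2-fold or more. Higher were the receptor genes Cxcr6 and Ccr8 and the neutrophil chemoattractant genes Cxcl2 and Cxcl3. Lower were the ligand genes Cxcl10, Ccl22, Xcl1 and Cxcl11 and the receptor genes Ccr10 and Cxcr5. Over all 18193 named genes, 2.06% passed that mark upwards and 2.89% downwards. Only 4 of the 10, namely Cxcr6, Xcl1, Cxcl10 and Ccl22, kept a 2-fold difference under all 9 other ways of processing that were tried. With 1 array per group no difference could be tested, and the precision of each value is limited by that number.

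Signals below 36.3, the 40th percentile of all signals on both arrays, were set to this floor before the log2 ratio of IL-5+ over IL-5- was taken. Where a single array exceeded the floor the ratio is given as "at least", a bound that holds only at this floor. It leaves out the error of the brighter signal. A higher floor or an added constant gave ratios smaller in size for some of these genes, such as Ccr10 and Cxcr5. Of the 51 genes, 24 were above the floor on both arrays, 5 on the IL-5+ array only, 9 on the IL-5- array only and 13 on neither. A second mark, 112.8, was the 60th percentile of all signals, and 21 genes reached it on an array. Counts among genes that passed through 1 array alone are descriptions, since such genes differ by construction. As a measure of error, the SD of the log2 ratio among different probe sets for 1 gene was taken, called the probe set SD here. It was 0.55 for mean signals of 36.3 to 112.8, 0.37 up to 500, 0.21 up to 2000 and 0.13 above, and differences between preparations of cells are not part of it. In RNA from a sorted population, fewer cells of a type and less RNA per cell cannot be told apart.

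The sorting marker gene Il5 read 37085 in IL-5+ and 67.4 in IL-5- cells. The labelled cell type could be checked on 7 CD4 T cell markers, which were all above the floor on both arrays, with Cd4 at 454 in IL-5+ and 471 in IL-5- cells. The summed signal of these 7 was 42261 in IL-5+ and 55108 in IL-5- cells. The summed signals of markers of other cell types were 182 in IL-5+ and 275 in IL-5- cells for 7 B cell genes and 371 in IL-5+ and 431 in IL-5- cells for 11 monocyte and macrophage genes. For 9 dendritic cell and MHC class II genes the sums were 649 in IL-5+ and 961 in IL-5- cells, and for 7 neutrophil genes 125 in IL-5+ and 182 in IL-5- cells. For 7 eosinophil, basophil and mast cell genes they were 71.2 in IL-5+ and 140 in IL-5- cells, and for 5 platelet genes 310 in IL-5+ and 434 in IL-5- cells. The sums were higher in IL-5+ cells for 3 natural killer cell genes (107 in IL-5+ and 29.2 in IL-5- cells), 3 CD8 and gamma delta T cell genes (388 in IL-5+ and 284 in IL-5- cells) and 7 stromal and endothelial genes (454 in IL-5+ and 375 in IL-5- cells). The sums include signals under the floor, and differences between low sums can come from these. Above the floor on 1 or both arrays were 5 B cell, 6 monocyte and macrophage, 8 dendritic cell and 2 neutrophil genes. The same held for 1 eosinophil, basophil and mast cell gene, 3 platelet genes and 1 natural killer cell gene. It also held for 3 CD8 and gamma delta T cell genes and 3 stromal and endothelial genes.

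**Figure D1:**
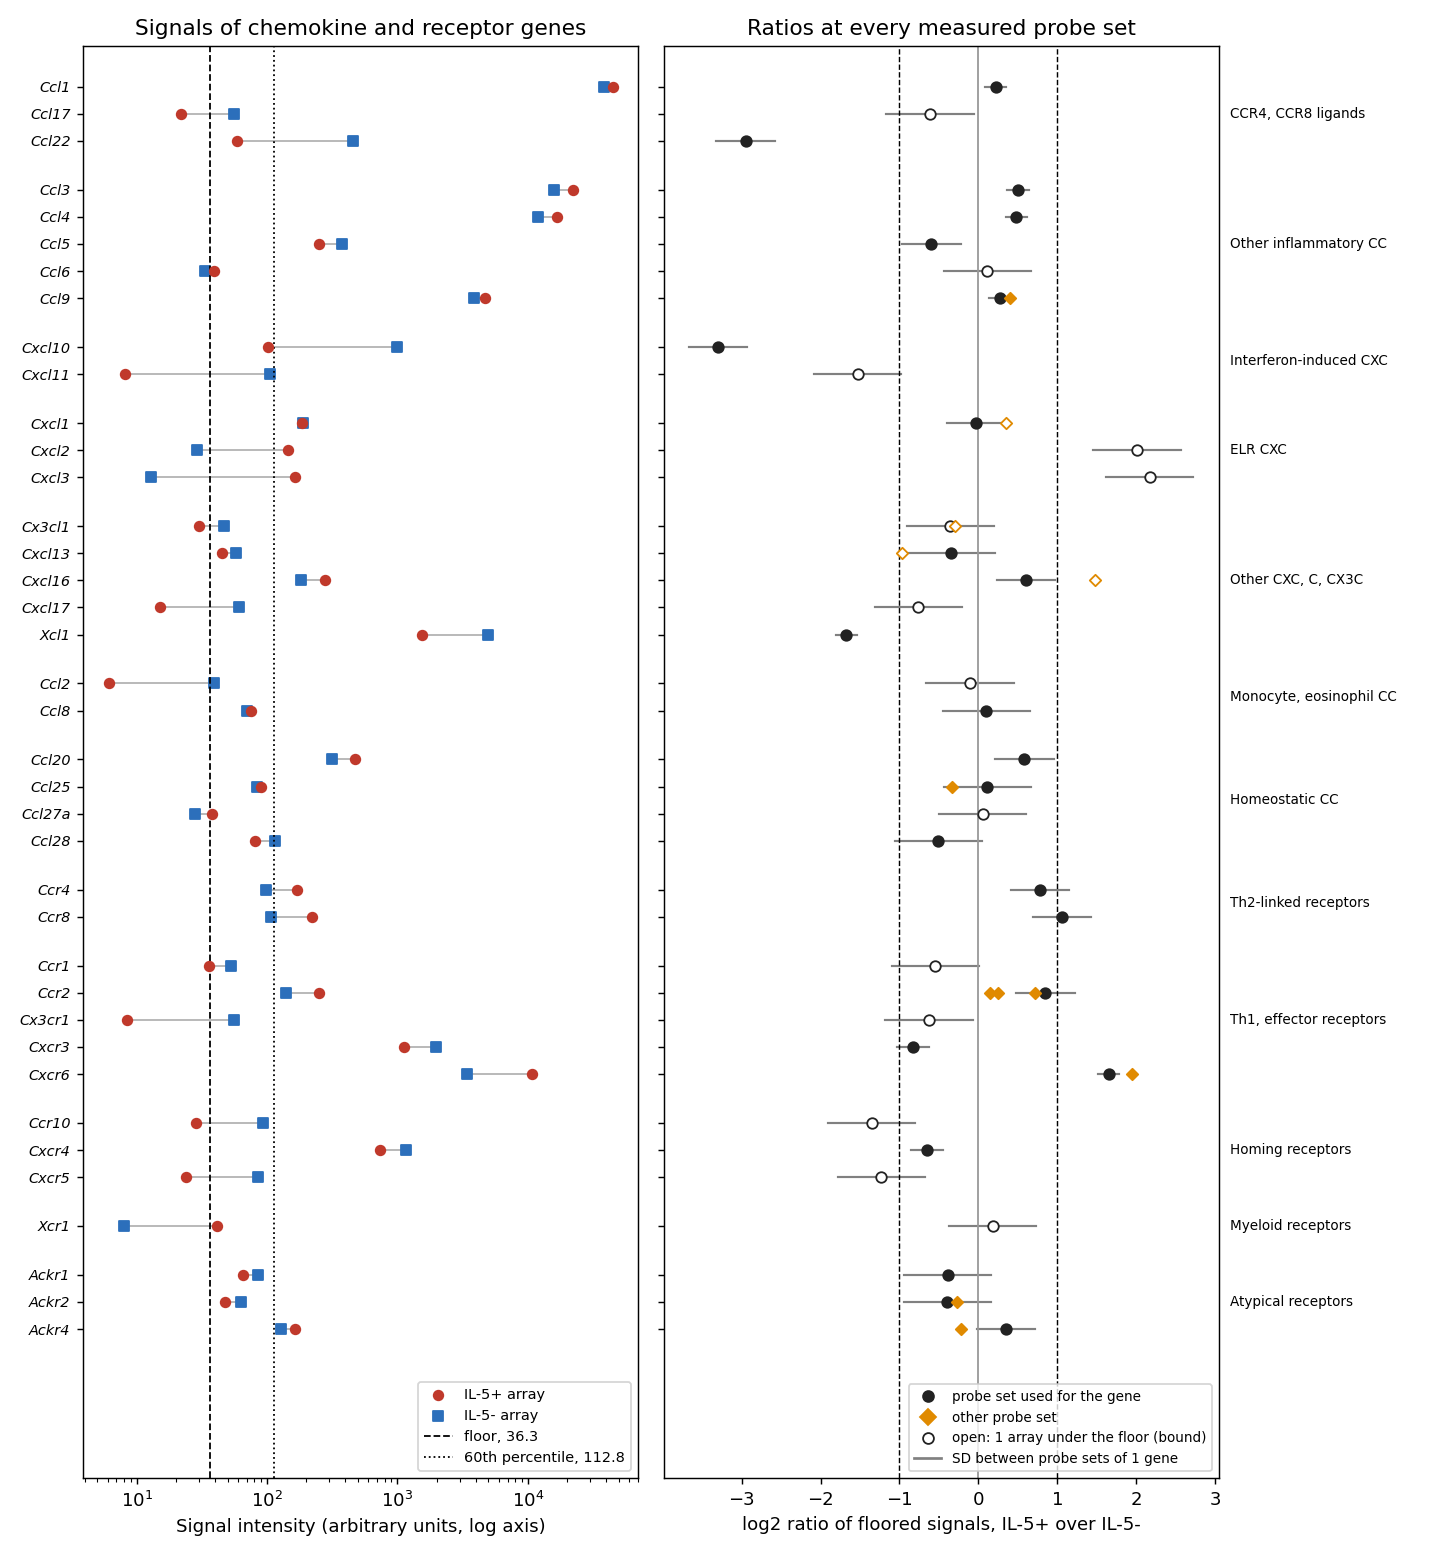
Signals (left, log axis, arbitrary units) and log2 ratios of IL-5+ over IL-5- (right) of the 38 chemokine and receptor genes above the floor on 1 or both arrays, ordered by role. Red circles are the IL-5+ and blue squares the IL-5- array, grey bars on the right are 1 probe set SD on either side, and open symbols are bounds. Cxcl10 and Ccl22 lie farthest to the left on the right panel, and Cxcl2 and Cxcl3, both bounds, farthest to the right.

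Among the interferon-induced ligands of Cxcr3, Cxcl10 read 102 in IL-5+ cells, against 1001 in IL-5- cells. Its log2 ratio was -3.30, a 9.82-fold lower signal, where the probe set SD was 0.37. Cxcl11, which shares the receptor Cxcr3, had 8.20 in IL-5+ cells and 105 in IL-5- cells. It was at least 2.89-fold lower, but its IL-5- signal lay under 112.8, so that no ratio remained with the floor raised to that mark, and its other probe set, which brought the median to -0.77, was under the floor on both arrays (17.2 in IL-5+ and 18.3 in IL-5- cells). Cxcl9, the other ligand of Cxcr3, was under the floor on both arrays. The receptor gene Cxcr3 itself had 1124 in IL-5+ and 1992 in IL-5- cells, a log2 ratio of -0.83. In a list of 14 other interferon-induced genes, 12 were at least 2-fold lower, none was higher and the median log2 ratio was -1.85. Their summed signal was 9078 in IL-5+ and 35828 in IL-5- cells, with Iigp1 (-3.57) and Ifit3 (-3.57) lowest. Whether these genes and Cxcl10 share a cause was not tested.

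The sequence before the Cxcl10 start site is shown because this gene had the lowest ratio of the 51 and had the same sign as the interferon-induced list. It is the RefSeq sequence of GRCm38.p6 at chr5:92348890-92349139, minus strand, the 250 bases before the start. Capitals mark an interferon-stimulated response element motif (ISRE: GAAA, any 2 bases, then GAAA) at positions -213 to -204 from the start site, NF-kappaB motifs (GGGA, any 4 bases, then CC) at -159 to -150 and -103 to -94, and an AP-1 motif (TGANTCA) at -74 to -68.
Cxcl10: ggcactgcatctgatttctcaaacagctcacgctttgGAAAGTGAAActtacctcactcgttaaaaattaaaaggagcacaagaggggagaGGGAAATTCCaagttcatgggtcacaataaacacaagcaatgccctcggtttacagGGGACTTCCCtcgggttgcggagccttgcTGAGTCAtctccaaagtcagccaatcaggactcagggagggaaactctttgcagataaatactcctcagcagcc

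Both strands were searched for each motif. Over 32817 RefSeq promoters, the same 250 bases held the ISRE motif in 2.97%, the NF-kappaB motif in 17.6% and the AP-1 motif in 6.75%. Of the 51 genes, 39 had a promoter entry, with 42 promoters in all. Of these 39 genes, 2 held the ISRE motif, 15 the NF-kappaB motif and 5 the AP-1 motif in any of their promoters. The counts are by gene, while the shares above are by promoter. A match describes the letters only, and no binding was measured in these data.

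Of the CC ligands of Ccr4 and Ccr8, Ccl22 was lower and Ccl1 was nearly level. Ccl22, a ligand of Ccr4 known from dendritic cells, macrophages and activated T cells, read 59.4 in IL-5+ cells, against 458.5 in IL-5- cells. Its log2 ratio was -2.95 (7.72-fold lower, probe set SD 0.37), and -2.02 with a floor of 112.8, since the IL-5+ signal lies under that mark. Ccl17, the other ligand of Ccr4, was dim, at 22.1 in IL-5+ and 55.6 in IL-5- cells, and at least 1.53-fold lower. Ccl1, a ligand of Ccr8, had 44925 in IL-5+ and 38548 in IL-5- cells, a log2 ratio of 0.22 at signals close to the top of the range on these arrays (51950), where array signals are compressed. Ccl8, another ligand of Ccr8 in mice, was dim, at 75.7 in IL-5+ and 70.7 in IL-5- cells (0.10). Of 9 dendritic cell and MHC class II markers, whose cells also make Ccl22, 8 were above the floor on an array and 5 on both. Ratios were below 0 for 7 genes, but those above the floor in IL-5- cells alone, such as Itgax, fall below 0 by construction. H2-Aa (51.0 in IL-5+ and 155.8 in IL-5- cells) was the 1 gene at least 2-fold lower, beside 2.89% of all named genes. Itgax, the integrin subunit that marks dendritic cells, had 18.0 in IL-5+ and 70.1 in IL-5- cells, and Flt3 was under the floor on both arrays. Zbtb46, a transcription factor of classical dendritic cells, was the 1 gene with a ratio above 0, at 149.7 in IL-5+ and 79.1 in IL-5- cells (0.92). The part of such cells in the Ccl22 difference was not tested.

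The 150 bases before the Ccl22 start site are shown as those of the ligand with the second lowest ratio, from RefSeq GRCm38.p6 at chr8:94745534-94745683, plus strand. Capitals mark the NF-kappaB motif at -131 to -122, and neither the ISRE nor the AP-1 motif is in its 250-base window.
Ccl22: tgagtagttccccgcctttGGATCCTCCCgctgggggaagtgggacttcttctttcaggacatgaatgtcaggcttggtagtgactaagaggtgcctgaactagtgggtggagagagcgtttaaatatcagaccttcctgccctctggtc

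Xcl1, the C chemokine that attracts cross-presenting dendritic cells through Xcr1, read 1545 in IL-5+ and 4936 in IL-5- cells. The log2 ratio was -1.68 (3.20-fold lower), 12.5 times the probe set SD of 0.13, and it ranged from -1.69 to -1.60 over the alternatives. Xcl1 is also made by natural killer cells, whose marker Ncr1 was under the floor on both arrays. Fcer1g, from the same list, had 61.4 in IL-5+ and 4.70 in IL-5- cells. The part of such cells in the Xcl1 difference was not tested. The receptor gene Xcr1 was at 41.1 in IL-5+ and 8.0 in IL-5- cells, at least 1.13-fold higher.

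The other inflammatory CC ligands, several of which T cells release on activation, differed by less than 2-fold. Ccl3 had 22346 in IL-5+ and 15795 in IL-5- cells, a log2 ratio of 0.50. Ccl4 had 16844 in IL-5+ and 12089 in IL-5- cells, a log2 ratio of 0.48. Ccl9, a ligand of Ccr1 known from mice, was at 4698 in IL-5+ and 3903 in IL-5- cells, with log2 ratios of 0.27 and 0.41 at its 2 probe sets. Ccl5, which binds Ccr1 and Ccr3 and is stored by effector T cells, was the only one of this group below 0, at 249 in IL-5+ and 377 in IL-5- cells (-0.59, 1.61 times its probe set SD). Ccl6 lay near the floor on both arrays (39.3 in IL-5+ and 33.7 in IL-5- cells). The ratios of Ccl3 and Ccl4 were 3.74 and 3.58 times the probe set SD, which does not cover differences between preparations of cells.

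The CXC ligands with the ELR motif, which attract neutrophils through Cxcr2, included both ligand genes that were at least 2-fold higher. Cxcl3 read 163 in IL-5+ cells, against 12.8 in IL-5- cells, at least 4.50-fold higher. Cxcl2 had 146 in IL-5+ and 29.1 in IL-5- cells, at least 4.02-fold higher. Each gene had 1 probe set, and with the floor raised to 112.8 their bounds were 0.53 and 0.37 on the log2 scale. Cxcl1 had 186 in IL-5+ and 191 in IL-5- cells at the probe set used, whose suffix _x_at marks possible matches to several transcripts. Its other probe sets read 46.2 and 29.2 in IL-5+ cells, against 31.5 and 29.7 in IL-5- cells. Cxcl5, Cxcl15 and the receptor gene Cxcr2 were under the floor on both arrays. Of 7 neutrophil markers, 5 were under the floor on both arrays and have no ratio, S100a8 and S100a9 among them. The other 2, Elane (62.2 in IL-5+ and 48.1 in IL-5- cells) and Ngp (33.7 in IL-5+ and 45.5 in IL-5- cells), differed by less than 2-fold.

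Cxcl3, Cxcl15, Cxcl1 and Cxcl2 follow each other on chromosome 5 in the RefSeq annotation with no other protein-coding gene between them. The 150 bases before the start sites of Cxcl3, Cxcl2 and Cxcl1 are shown to set the pair with bounds above 2-fold beside the neighbour with a ratio near 0. They are RefSeq sequences of GRCm38.p6, plus strand, at chr5:90785951-90786100, chr5:90903749-90903898 and chr5:90891095-90891244. Capitals mark the NF-kappaB motif, whose matches overlap by all but 1 base where both strands match.
Cxcl3: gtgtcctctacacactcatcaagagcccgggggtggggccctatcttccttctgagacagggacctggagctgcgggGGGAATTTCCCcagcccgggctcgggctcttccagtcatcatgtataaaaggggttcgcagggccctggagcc
Cxcl2: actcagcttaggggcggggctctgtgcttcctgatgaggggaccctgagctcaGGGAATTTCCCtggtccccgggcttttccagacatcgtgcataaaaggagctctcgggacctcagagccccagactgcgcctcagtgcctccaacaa
Cxcl1: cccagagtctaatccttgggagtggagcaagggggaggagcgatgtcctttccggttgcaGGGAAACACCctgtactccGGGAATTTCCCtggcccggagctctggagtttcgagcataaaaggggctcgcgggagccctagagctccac

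All 3 windows hold the run GGGAATTTCCC of 11 bases, which 14 of the 32817 promoters hold (0.0427%). Among the 39 members with a promoter entry no other member holds it, and members without an entry could not be searched. Cxcl1 has a further match at -90 to -81. The run was picked after the sequences were seen, and it is present in Cxcl1, whose ratio was -0.033, as well as in the pair with higher signals.

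Other ligands were dim or differed by less than 2-fold at the probe set used. Cxcl16, a membrane-bound ligand of Cxcr6, had 278 in IL-5+ and 183 in IL-5- cells, a log2 ratio of 0.60. Its other probe set had 101 in IL-5+ and 26.9 in IL-5- cells, at least 2.78-fold higher, and the median of the pair was 1.04. Ccl20, the ligand of Ccr6, had 476 in IL-5+ and 318 in IL-5- cells (0.58). Ccl28, a mucosal ligand of Ccr10, had 81.1 in IL-5+ and 115 in IL-5- cells (-0.51), and Ccl25, the gut ligand of Ccr9, had 90.1 in IL-5+ and 83.3 in IL-5- cells, with probe sets on either side of 0 (0.11 and -0.34). Ccl27a, a skin ligand of Ccr10 with near-identical copies in the genome, was at 37.7 in IL-5+ and 27.9 in IL-5- cells. Cxcl13, which draws B cells and follicular T cells through Cxcr5, had 45.4 in IL-5+ and 57.7 in IL-5- cells. Its second probe set gave 22.1 in IL-5+ and 70.7 in IL-5- cells. Cx3cl1 (30.1 in IL-5+ and 46.5 in IL-5- cells), Cxcl17 (15.1 in IL-5+ and 61.5 in IL-5- cells) and the monocyte chemoattractant gene Ccl2 (6.10 in IL-5+ and 39.1 in IL-5- cells) exceeded the floor in IL-5- cells alone, by less than 2-fold.

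Among receptors, Cxcr6, which marks effector and tissue-resident T cells and binds Cxcl16, was higher at both of its probe sets. They gave 10758 and 8356 in IL-5+ cells, against 3423 and 2162 in IL-5- cells. The log2 ratios were 1.65 and 1.95 where the probe set SD was 0.13, and the first is 3.14-fold. The 2 receptors linked to Th2 cells that were above the floor both had ratios above 0. Ccr8, which binds Ccl1, had 223.5 in IL-5+ and 107 in IL-5- cells, a log2 ratio of 1.06 that came under 2-fold with a floor of 112.8 (0.99) and with a constant of 50 added (0.80). Ccr4, the receptor of Ccl17 and Ccl22, had 170.5 in IL-5+ and 99.1 in IL-5- cells, a log2 ratio of 0.78, 2.12 times its probe set SD. Ccr3, the eotaxin receptor of eosinophils and some Th2 cells, was under the floor on both arrays (19.1 in IL-5+ and 7.0 in IL-5- cells).

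**Figure D2:**
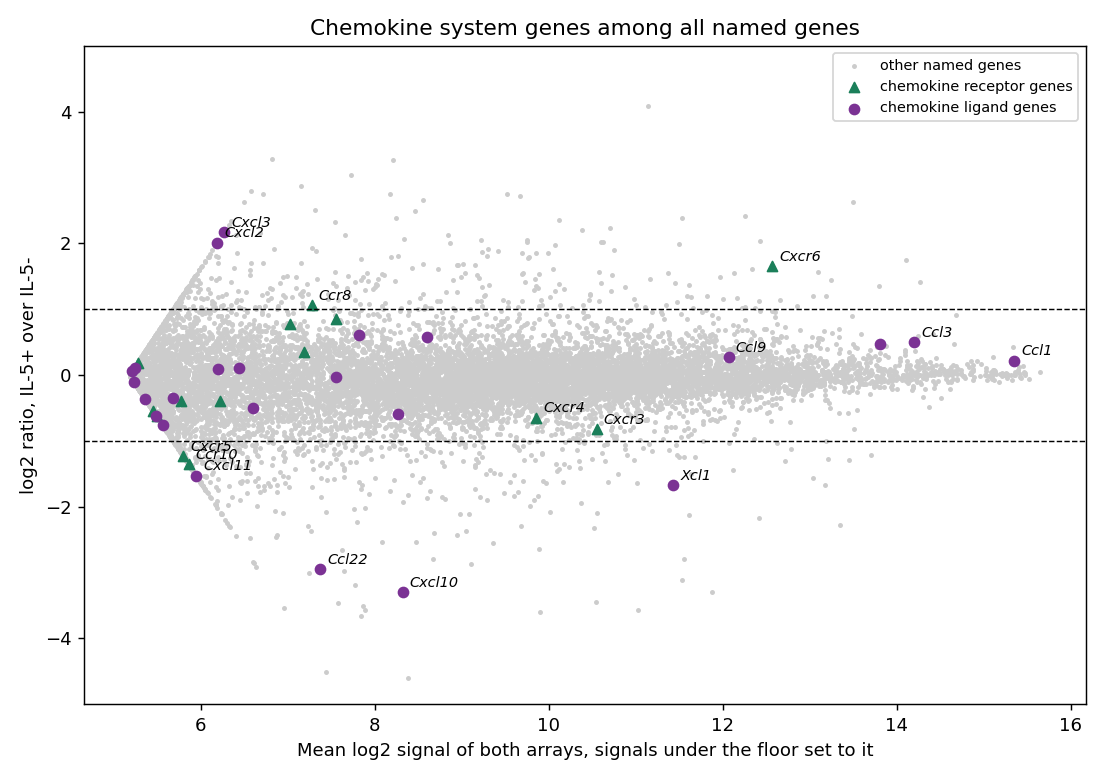
Log2 ratio of IL-5+ over IL-5- against the mean log2 signal of both arrays for named genes above the floor on 1 or both arrays (grey), with chemokine receptor genes as green triangles and ligand genes as purple circles, and dashed lines at 2-fold. Cxcr6 and Xcl1 lie outside the dashed lines at high signals, while Cxcl2, Cxcl3, Cxcl11, Ccr10 and Cxcr5 lie on the edges that the floor draws at low signals; 1 gene, Il5, lies beyond the axis.

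Receptors of other effector cells did not share a direction. Ccr2, the receptor of inflammatory monocytes and of effector T cells, had 253 in IL-5+ and 140 in IL-5- cells (0.85), and its other 3 probe sets gave 0.72, 0.24 and 0.15. Cxcr3, given above, was lower by 4.02 times its probe set SD of 0.21, without reaching 2-fold. Ccr1 (35.9 in IL-5+ and 53.0 in IL-5- cells) and Cx3cr1 (8.40 in IL-5+ and 56.0 in IL-5- cells), receptors of myeloid and cytotoxic cells, exceeded the floor in IL-5- cells alone.

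Of the receptors for lymphoid, skin and mucosal sites, Cxcr4, the receptor of Cxcl12, had 739.5 in IL-5+ and 1160 in IL-5- cells. Its log2 ratio was -0.65, 3.16 times the probe set SD. Cxcr5, which leads cells into B cell follicles, had 24.1 in IL-5+ and 85.1 in IL-5- cells, at least 2.34-fold lower. Ccr10, a receptor of skin-homing T cells, had 28.6 in IL-5+ and 92.7 in IL-5- cells, at least 2.55-fold lower. The IL-5- signals of Cxcr5 and Ccr10 lay under 112.8, and both came under 2-fold with an added constant of 50 (-0.87 and -0.86). The atypical receptor genes Ackr1 (65.2 in IL-5+ and 85.3 in IL-5- cells), which binds many inflammatory chemokines on endothelium and red cells, and Ackr2 (47.8 in IL-5+ and 62.9 in IL-5- cells), a scavenger of CC chemokines, differed by less than their probe set SD. Ackr4, a scavenger of Ccl19, Ccl21 and Ccl25, had 164 in IL-5+ and 129 in IL-5- cells, with a second probe set in the opposite direction (132 in IL-5+ and 154 in IL-5- cells).

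In all, 13 genes had signals under the floor on both arrays, from 4.20 to 35.2 in IL-5+ cells and from 2.60 to 33.3 in IL-5- cells at the probe sets used. They were the ligand genes Ccl7, Ccl11, Ccl12, Ccl24, Cxcl5, Cxcl9, Cxcl12, Cxcl14 and Cxcl15 and the receptor genes Ccr3, Ccr9, Cxcr2 and Ackr3. No ratio is given for them, and a signal under the floor does not show that a gene was silent.

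Set by brightness, 9 of the 51 genes had a signal of 500 or more on an array, and 1 of these (Cxcr6) was at least 2-fold higher and 2 (Cxcl10 and Xcl1) at least 2-fold lower. Among all 6129 named genes that bright, the shares were 2.22% and 2.46%. Between 112.8 and 500 there were 12 members, with 3 higher and 1 lower, beside 4.01% and 6.70% of 2969 named genes. Between 36.3 and 112.8 there were 17, with none higher and 3 lower, beside 2.94% and 4.35% of 4047. Members whose geometric mean signal reached the floor numbered 31, with 16 ratios above 0 and 15 below. Their median log2 ratio was 0.099, and that of the 11771 named genes chosen in the same way was -0.051. Of those named genes, 44.2% had ratios above 0.

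Ligands and their receptors had ratios of the same sign in some pairs and of opposite sign in others. Cxcl16 and Cxcr6 both had ratios above 0 (0.60 and 1.65), as did Ccl1, which was nearly level, and Ccr8 (0.22 and 1.06). Cxcl10 and Cxcr3 both had ratios below 0 (-3.30 and -0.83). Ccl22 and Ccr4 stood on opposite sides (-2.95 and 0.78), as did Xcl1 and Xcr1 (-1.68 and a bound of 0.18). The pairs given are examples, and others of both kinds are not listed. Neighbouring genes likewise shared a sign in some stretches and not in others. In the RefSeq annotation of GRCm38.p6, Ccl22, Cx3cl1 and Ccl17 lie side by side on chromosome 8 with no other protein-coding gene between them, and all had ratios below 0 (-2.95, -0.36 and -0.62), the last pair as bounds. Ccl5, Ccl9, Ccl6, Ccl3 and Ccl4 follow each other on chromosome 11, and Ccl5 alone of these had a ratio below 0. On chromosome 9, Cxcr6 and Xcr1 are next to each other, followed by Ccr1, whose ratio was a bound of -0.55.

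Of 34 genes that act downstream of chemokine receptors, all above the floor on both arrays, 2 were at least 2-fold higher and 1 lower, beside 2.06% and 2.89% of all named genes. Those shares include named genes under the floor on both arrays, which could not pass 2-fold. The median log2 ratio of the 34 genes was 0.11. Higher were Rgs2, a regulator of G protein signalling (3798 in IL-5+ and 1378 in IL-5- cells, 1.46), and Plcb2, a phospholipase C activated by G proteins (125 in IL-5+ and 57.8 in IL-5- cells, 1.11). Lower was Rasgrp2, an activator of Rap1 in integrin adhesion (56.7 in IL-5+ and 172 in IL-5- cells, -1.60). Plcb2 and Rasgrp2 each had a signal under 112.8 on an array, and a floor raised to that mark makes both ratios smaller in size. Rgs2 and Rasgrp2 have 4 probe sets each, of which only the 1 with the highest mean log2 signal is given. Of 13 other chemoattractant receptor genes, 9 were above the floor, and 2 were at least 2-fold higher, beside the same 2.06% of all named genes. They were the leukotriene receptor genes Ltb4r1 (183 in IL-5+ and 2.90 in IL-5- cells, at least 5.05-fold) and Cysltr1 (466.5 in IL-5+ and 162 in IL-5- cells, 1.52). Ltb4r1 was above the floor in IL-5+ cells alone, so its direction was fixed by construction and its bound shrinks with a higher floor. Among chemokines named outside the symbol rule, the platelet ligands Pf4 and Ppbp were under the floor on both arrays.

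**Figure D3:**
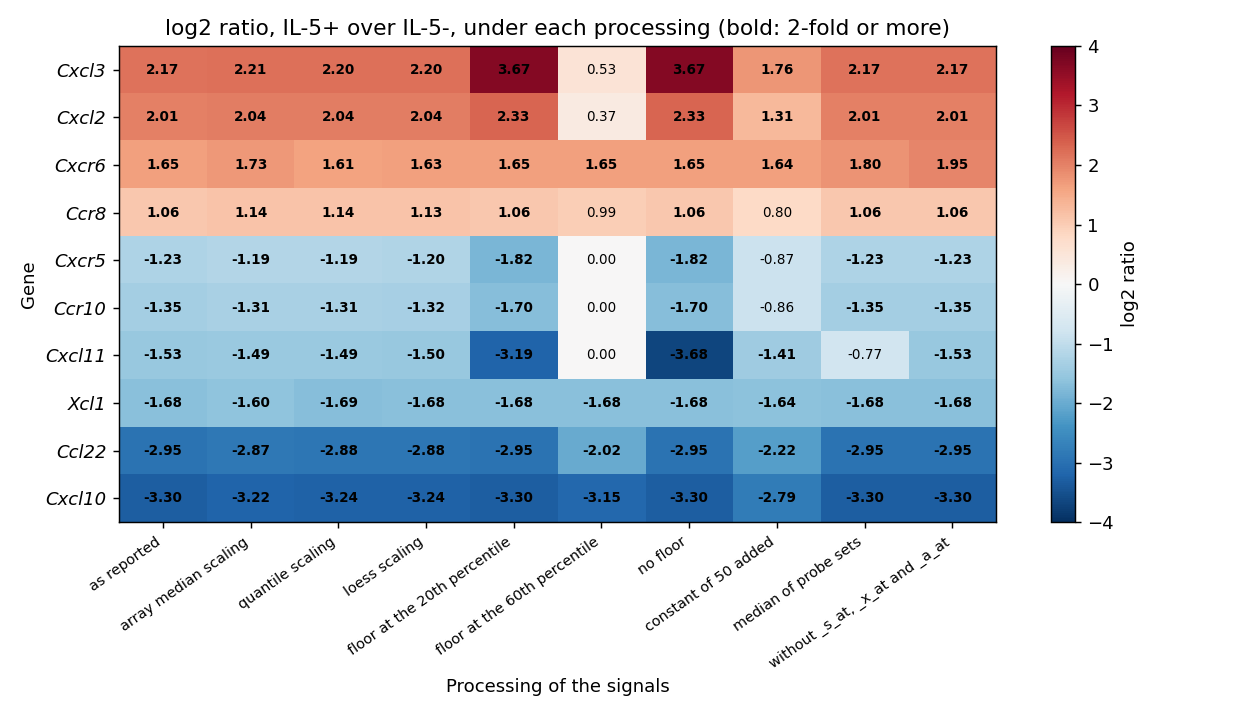
Log2 ratio of IL-5+ over IL-5- for the 10 genes past 2-fold (rows) as reported and under 9 other ways of processing (columns), with red above 0, blue below 0 and bold type at 2-fold or more. Cxcr6, Xcl1, Ccl22 and Cxcl10 stay past 2-fold in every column, and the other 6 come under it with the floor at the 60th percentile.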

How the data were processed

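Per the submitters' processing notes, the authors made the deposited values with GCOS, the Affymetrix scanner software; no version, algorithm or scaling target is named there. Each deposited intensity is a linear value for 1 probe set on 1 array, without a detection call. The trimmed means of the arrays were 496 (IL-5+) and 497 (IL-5-), as global scaling would give, so ratios are relative to the rest of each array.

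Of 45037 probe sets, 34945 had 1 gene symbol, 932 had several and 9160 were not listed. RefSeq (GRCm38.p6) matched 34741 by entrez identifier and changed 0 symbols. Ccl19, Ccl21a, Ccl26, Ccl27b and Cxcr1 were not analysed here. Where a gene had several probe sets, the 1 with the highest mean log2 signal stood for it. Signals under the 40th percentile were set to it, and no test was possible with 1 array per group. Members and lists were chosen with earlier results of these data known. All members above the floor on an array are named with both signals; of other lists, at most the 4 largest ratios and the 2 brightest, to which Cd4, Flt3, S100a8, S100a9, Pf4 and Ppbp were added after their values were seen. Counting was tested on simulated data in which changes were planted only in genes above 4 times the floor on both arrays. Members past 2-fold with a dimmer signal on an array, such as Cxcl10 and Ccl22, are not covered by it. Alternatives were 3 scalings (by loess, by quantiles, by the array median), no floor or a floor at the 20th or the 60th percentile, a constant of 50 added to each signal, the median over a gene's probe sets, leaving out probe sets with the suffixes _s_at, _x_at and _a_at, thresholds of 1.5-fold and 3-fold, and updated symbols. Python 3.11.15, numpy 2.4.6, pandas 2.3.3 and statsmodels 0.14.6 were used.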

Additional observations from a re-analysis of the deposited data

How the results depend on the processing

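The treatment of dim signals moved the counts of members most. As reported, 4 were higher and 6 lower. Lowering the floor to the 20th percentile (11.5) gave 6 higher and 12 lower, dropping it gave 10 and 12, and raising it to the 60th percentile (112.8) gave 1 and 3. At 1.5-fold there were 7 higher and 12 lower members, and at 3-fold 3 higher and 3 lower. The 3 scalings and updated symbols gave 4 and 6 each. Adding a constant or choosing probe sets in another way gave 3 to 5 higher and 4 to 6 lower. Over all named genes, 374 were higher and 526 lower as reported, against 1325 and 1572 with the lowered floor, 2058 and 2314 without one, 183 and 226 with the raised floor and 232 and 300 with the constant. The median log2 ratio of the 31 members stayed between 0 and 0.15. Among 338 ratios of the 38 named members under the alternatives, no ratio past 2-fold changed sign and 33 moved by more than the probe set SD. Without a floor or with the lower one, Ccl17, Ccl2, Cx3cr1, Cxcl17 and Xcr1 also passed 2-fold, from signals that were under 36.3 on 1 array, as did Cxcl12, Cxcl15 and Cxcr2, under 36.3 on both. Without a floor, Cxcl9, Ccr3, Ccl24 and Ackr3, also under 36.3 on both arrays, passed it too. Without replicates no array could be left out. No paired analysis was possible because each group has 1 array and no test was run.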
